A study of Homo sapiens with 9 samples.

Results

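The Mediator complex joins transcription factors bound at enhancers and promoters to RNA polymerase II. Its head module contacts the polymerase, the middle module lies between head and tail, the tail module is bound by many transcription factors, and the MED14 subunit runs through all of them as a scaffold. A separable kinase module holds cyclin C with CDK8 or its paralog CDK19, and MED12 and MED13 or their paralogs MED12L and MED13L. Mediator acts at stress responsive promoters as at most others, and the transcripts of its own subunits were followed here in stressed T lymphocytes.

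Members were chosen by name: every gene whose platform symbol was MED followed by a number, with or without a final L, and CDK8, CDK19 and CCNC (cyclin C). The rule found 31 of the 19775 genes on the array, with 91 probe sets that each carried 1 gene symbol. The head module had 10 of them, the middle module 9, the tail 4 and the kinase module 7, and MED14 was kept apart as the scaffold. MED6 and MED25 were not analysed here. A gene stood for its brightest probe set over the 9 arrays, and for 30 of the 31 genes that probe set lay at or above the median signal of the array. The exception was MED24 of the tail, whose single usable probe set lay at percentile 16.4 of mean signal and whose values are therefore weak.

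The study exposed Jurkat cells, 1 established human T lymphocyte line, in electroporation cuvettes. The sham group (3 arrays) received no pulses, the nsEP group (3 arrays) received 100 pulses of 10 ns at 150 kV/cm, and the heat shock group (3 arrays) was heated as a second kind of stress. Samples in all groups were kept in the same medium with fetal bovine serum and antibiotics, and RNA was taken 4 h after exposure. The sample titles call the samples biological replicates of this 1 line, and the values are averages over all cells, so that fewer cells with a transcript and less of it per cell cannot be told apart.

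Values are log2 MAS5 signals, and a difference between groups is given as a log2 ratio. Levels of different probe sets cannot be set against each other. A gene passed the test when its adjusted p (limma, Benjamini-Hochberg over 54613 probe sets) was under 0.05. Both labelled treatments could be checked. HSPA6, a heat induced chaperone gene, had a mean log2 signal of 6.20 in sham and 14.97 in heat shock samples. After nsEP it was higher than in sham without overlap of arrays, but did not pass the test (log2 ratio 1.39). FOS, an immediate early gene that both treatments raise, had 3.07 in sham, 10.34 in nsEP and 12.27 in heat shock samples. FOS passed the test as higher in nsEP than in sham samples, and as lower in nsEP than in heat shock samples (log2 ratio -1.93). Its arrays did not overlap in either comparison. A rise of FOS over sham is thus not particular to nsEP. The T lymphocyte markers CD3D and LCK lay at percentiles 99.6 and 99.4 of mean signal. They were the brightest of the 14 such markers measured, of which CD7 lay lowest at percentile 79.4. The array of nsEP replicate 3 stood apart at -172.6 on the second principal component, where the other 8 lay between -30.6 and 62.6, and its log2 ratio of 3' over 5' probe sets of GAPDH was 0.56 against -0.22 and -0.11 on the other nsEP arrays. After heat shock the median of all probe sets was 0.18 higher than in sham on the deposited scale. That shift was -0.01 after quantile normalization, -0.13 when each array was centred at its median and -0.85 when the poly-A spike-ins set the scale, and directions are read with it.

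After heat shock 5 Mediator transcripts were lower than in sham, and none passed the test after nsEP exposure. The 5 were MED4, MED7 and MED31 of the middle module and MED11 and MED18 of the head, MED31 at its brightest probe set alone. Because the results turn on these genes, the 250 bases before the transcription start of each are printed here, on the gene's own strand and as RefSeq gives the start on GRCh38.p14. For MED7, which has 2 overlapping starts in the table, the first is shown. MED4 has its window at chr13:48095105-48095354 on the minus strand, MED7 at chr5:157142866-157143115 on the minus strand, MED11 at chr17:4731178-4731427 on the plus strand, MED18 at chr1:28328790-28329039 on the plus strand and MED31 at chr17:6651606-6651855 on the minus strand. Capitals mark matches on either strand to the motifs searched, which were the heat shock element (GAA, TTC and GAA in a row, each parted by NN), the AP-1 site TGACTCA, the cAMP response element TGACGTCA, the ETS site CCGGAAGT, the NRF1 site (GCGCA, any base, GCGC), CCAAT and TATAAA.
MED4: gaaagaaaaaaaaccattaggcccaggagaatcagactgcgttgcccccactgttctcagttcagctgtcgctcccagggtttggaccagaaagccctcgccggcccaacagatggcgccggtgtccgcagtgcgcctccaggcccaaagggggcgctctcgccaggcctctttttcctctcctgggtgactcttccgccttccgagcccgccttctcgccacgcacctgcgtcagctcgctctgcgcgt
MED7: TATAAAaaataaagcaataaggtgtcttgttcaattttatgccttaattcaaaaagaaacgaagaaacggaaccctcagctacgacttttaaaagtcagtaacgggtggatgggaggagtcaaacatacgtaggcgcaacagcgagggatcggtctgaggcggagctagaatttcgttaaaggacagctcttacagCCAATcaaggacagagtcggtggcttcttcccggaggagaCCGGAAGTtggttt
MED11: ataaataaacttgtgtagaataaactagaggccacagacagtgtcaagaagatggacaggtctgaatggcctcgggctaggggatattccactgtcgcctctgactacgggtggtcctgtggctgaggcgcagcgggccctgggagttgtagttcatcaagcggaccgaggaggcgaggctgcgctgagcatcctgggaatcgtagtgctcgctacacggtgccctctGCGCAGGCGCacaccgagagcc
MED18: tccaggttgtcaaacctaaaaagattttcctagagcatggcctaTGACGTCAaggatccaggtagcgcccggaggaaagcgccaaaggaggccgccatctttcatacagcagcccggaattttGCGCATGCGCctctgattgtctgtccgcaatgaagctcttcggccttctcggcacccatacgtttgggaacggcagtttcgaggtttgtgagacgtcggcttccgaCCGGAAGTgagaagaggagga
MED31: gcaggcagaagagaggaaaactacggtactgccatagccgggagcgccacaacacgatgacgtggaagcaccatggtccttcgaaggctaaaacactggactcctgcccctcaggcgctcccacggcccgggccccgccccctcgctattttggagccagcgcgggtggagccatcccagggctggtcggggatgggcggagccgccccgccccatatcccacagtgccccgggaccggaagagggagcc

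The 5 windows shared no single motif. The ETS letters stood in MED18, beginning 21 bases before the start, and in MED7, beginning 14 bases before the start shown and 104 bases before its other start, and they occur in 3.42% of the 35116 promoters of the table. NRF1 letters began 22 bases before the start of MED11 and 127 bases before that of MED18 (5.07% of all promoters). MED18 also held a cAMP response element 206 bases before its start (1.65%), and MED7 a CCAAT box (32%) and, at the far edge of the window, TATAAA (10.7%). The windows of MED4 and MED31 held none of the letters searched. The heat shock element occurs in 0.441% of all promoters and stood in none of these 5 windows. Of the 24 members with a promoter in the table, MED19 alone had those letters, 140 bases before its start. A match describes letters in the window and no more.

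In heat-shocked cells 5 of 31 Mediator genes (16.1%) passed the test with lower signal than in sham and 0 with higher signal. Over all genes 3.99% passed as lower and 1.72% as higher, and among the 12239 genes whose signal was at or above the median, as it was for 30 of the members, 6.4% passed as lower. The arrays of the groups did not overlap for 14 members that were lower after heat shock (45.2%; 13.7% of all genes and 20.7% of the brighter genes) and for 3 that were higher (17.5% of all genes). At an unadjusted p under 0.05 there were 11 of the 31 members, against 22% of all genes and 29.2% of the brighter genes.

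By module, 2 of 10 head genes and 3 of 9 middle genes fell, and 0 of 4 tail genes, 0 of 7 kinase module genes and not MED14. The tail count rests on the dim probe set of MED24. A brighter probe set (percentile 78.4 of mean signal), which the platform lists with MED24 and with a microRNA gene and which was therefore assigned to neither, was lower after heat shock (log2 ratio -0.81, SE 0.18, adjusted p 0.0240). The median log2 ratio was -0.36 in the head, -0.39 in the middle module and -0.09 in the kinase module. These medians stayed below 0 under each scaling that was tried. Each of those scalings moved the median of all probe sets down, so that this is no separate check of direction. The tail had a median of 0.14, which turned to -0.01 after quantile normalization, -0.16 with centred arrays and -0.89 with spike-in scaling. Over all 31 members the median was -0.15, over all genes 0.14 and over the brighter genes 0.03. Assigning MED27, MED28, MED29, MED30 and MED14 to the tail and MED19 to the head, as other module maps do, left the 5 genes in the head and the middle. The differences between modules were not tested.

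**Figure D1:**
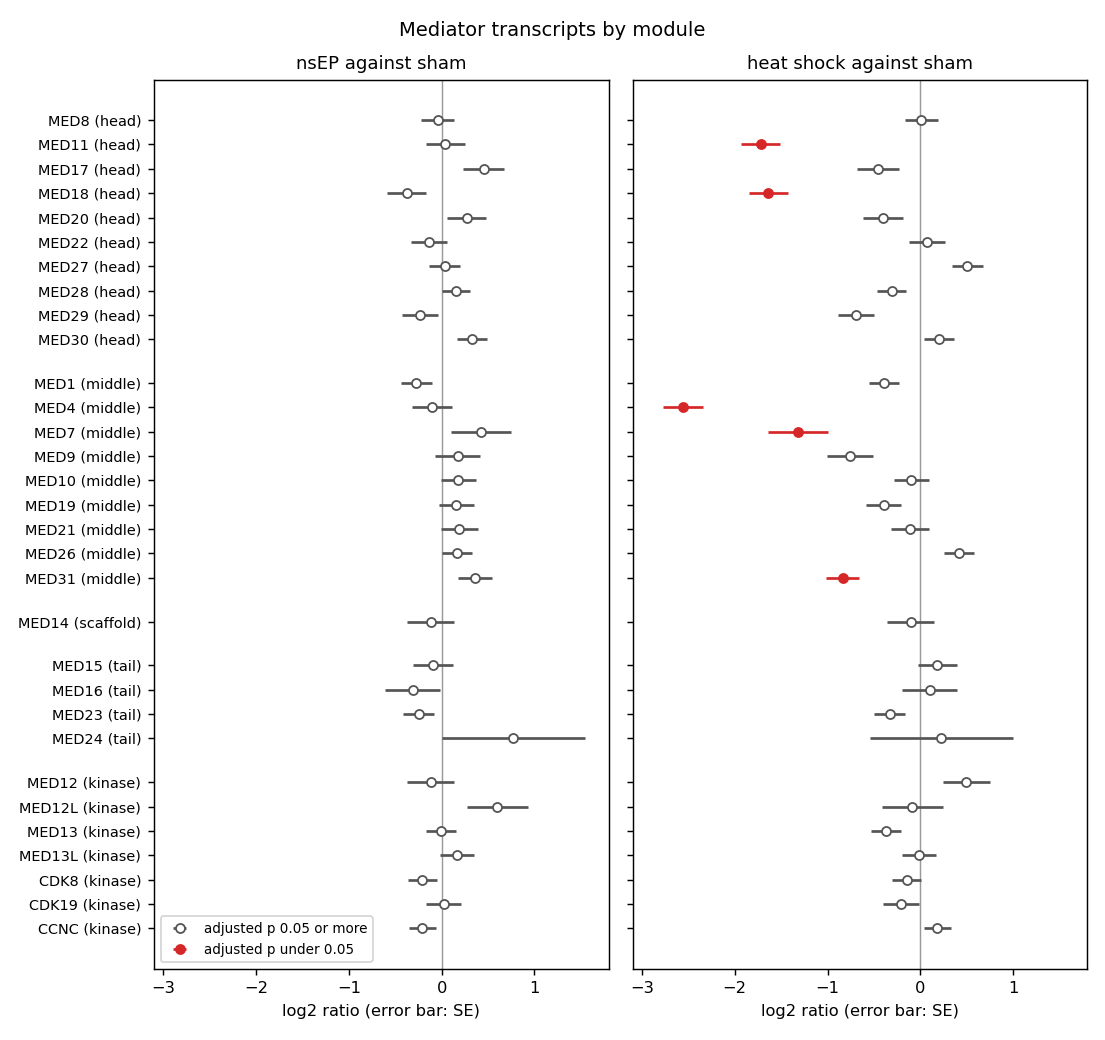
Log2 ratios of the 31 Mediator genes against sham, ordered by module, for nsEP on the left and heat shock on the right. Points are limma estimates from 3 arrays a group, bars are standard errors and filled red points passed an adjusted p of 0.05. MED4, MED11, MED18, MED7 and MED31 passed after heat shock, and no point passed after nsEP.

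MED4, a core subunit of the middle module, fell most. Its log2 signal was 11.49, 11.89 and 11.45 on the sham arrays, 11.85, 11.52 and 11.15 on the nsEP arrays and 8.97, 8.78 and 9.41 on the heat shock arrays. All heat shock arrays lay below every other array by a wide margin, while sham and nsEP overlapped. The log2 ratio of heat shock against sham was -2.56 (SE 0.22, adjusted p 3.59e-05), a 5.88-fold fall.

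MED11 and MED18 are small head subunits. MED11 pairs with MED22 at the base of the head, and MED18 pairs with MED20 on its movable jaw. For MED11 the sham arrays gave 9.79, 9.48 and 10.17, the nsEP arrays 9.82, 9.81 and 9.93 and the heat shock arrays 8.42, 8.06 and 7.80. For MED18 the sham arrays gave 9.54, 9.32 and 9.25, the nsEP arrays 9.14, 8.67 and 9.15 and the heat shock arrays 7.89, 7.43 and 7.87. In both genes the heat shock arrays lay below all others. The log2 ratio against sham was -1.72 for MED11 (SE 0.21, adjusted p 0.00066) and -1.64 for MED18 (SE 0.21, adjusted p 0.000897). Their partners did not pass. MED22 had a log2 ratio of 0.07 (95% confidence interval -0.35 to 0.49) and MED20 of -0.40 (-0.86 to 0.06).

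MED7 and MED31 bind each other in the middle module, where MED7 also forms a hinge with MED21. MED7 had 10.60, 9.93 and 9.81 in sham, 10.22, 10.33 and 11.06 in nsEP and 9.51, 8.30 and 8.58 in heat shock samples. The heat shock arrays of MED7 lay below all others, replicate 1 by the least. MED31 had 10.78, 10.57 and 10.86 in sham, 10.99, 11.06 and 11.25 in nsEP and 10.20, 9.54 and 9.96 in heat shock samples. The 3 groups of MED31 did not overlap, with nsEP highest and heat shock lowest. The log2 ratio of heat shock against sham was -1.32 for MED7 (SE 0.32, adjusted p 0.0382) and -0.84 for MED31 (SE 0.18, adjusted p 0.0208). These were the least certain of the falls. The other 2 probe sets of MED31 gave 0.71 and 0.02, and the mean of its probe sets gave -0.04 (adjusted p 0.912). Without 1 array the adjusted p of MED7 ranged from 0.0134 to 0.143 and passed only without heat shock replicate 1, and that of MED31 ranged from 0.0212 to 0.0804 and passed only without heat shock replicate 1 or sham replicate 2.

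**Figure D2:**
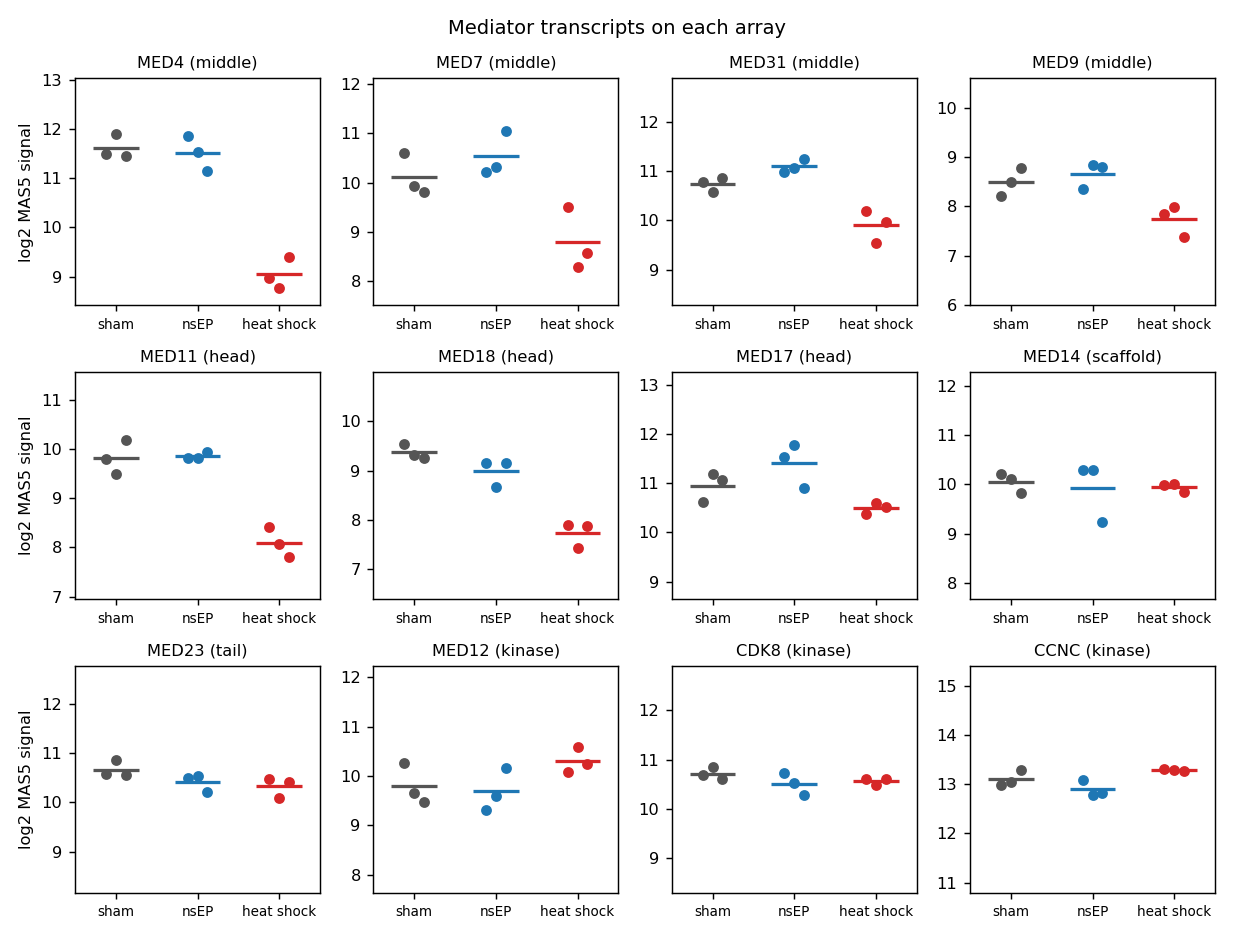
Log2 MAS5 signal of 12 Mediator genes on each array. Points are single arrays of sham, nsEP and heat shock samples, horizontal lines are group means over 3 arrays and each panel has its own vertical range. In MED4, MED11 and MED18 the heat shock arrays lie clear of both other groups, and in CDK8 and MED14 the groups overlap.

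Other members had smaller log2 ratios and did not pass. MED29 of the head had a log2 ratio of -0.69 (adjusted p 0.072) and MED9 of the middle module, which binds MED4, of -0.76 (adjusted p 0.117), and their heat shock arrays lay below all sham arrays. MED9 read 8.20, 8.49 and 8.78 in sham, 8.35, 8.83 and 8.79 in nsEP and 7.85, 7.98 and 7.37 in heat shock samples. Among the members with higher values after heat shock were MED27 (0.51, adjusted p 0.132), MED26 (0.42, adjusted p 0.194) and MED30 (0.20, adjusted p 0.562), and these were the 3 whose heat shock arrays all lay above the sham arrays. MED26 is the subunit that recruits elongation factors to Mediator that lacks the kinase module. With arrays centred on their medians, 10 members passed as lower: the 5 above and MED1, MED9, MED13, MED28 and MED29. With spike-in scaling 10 passed as lower as well, the 5 above with MED9, MED13, MED19, MED20 and MED29. Over all 54613 probe sets 4571 passed in either direction with centring and 3762 with spike-in scaling, against 2276 as deposited, so that more probe sets passed across the array as well. No member passed as higher under any scaling, where each alternative scaling moved heat shock values down against sham as a whole.

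The subunits through which activators reach Mediator did not pass the test against sham at their brightest probe sets. MED1, which is bound by nuclear receptors, read 12.02, 11.80 and 11.62 in sham, 11.77, 11.40 and 11.44 in nsEP and 11.21, 11.54 and 11.51 in heat shock samples, with a log2 ratio after heat shock of -0.39 (confidence interval -0.75 to -0.03, adjusted p 0.23). MED15, which is bound by SREBP factors, read 8.81, 9.13 and 8.96 in sham, 8.56, 8.90 and 9.16 in nsEP and 9.04, 9.47 and 8.95 in heat shock samples, and its groups overlapped (0.18, adjusted p 0.70). MED23, a tail subunit bound by the growth factor responsive factor ELK1, read 10.56, 10.85 and 10.55 in sham, 10.50, 10.52 and 10.21 in nsEP and 10.48, 10.08 and 10.41 in heat shock samples. Its sham arrays lay above both other groups, with log2 ratios of -0.24 after nsEP (adjusted p 0.846) and -0.33 after heat shock (adjusted p 0.324). MED16, also of the tail, had 0.10 after heat shock, and the dim probe set of MED24 gave a confidence interval of -1.45 to 1.90.

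The structural subunits MED14 and MED17 did not pass against sham either. MED14, the scaffold, read 10.20, 10.11 and 9.82 in sham, 10.28, 10.28 and 9.22 in nsEP and 9.99, 10.00 and 9.83 in heat shock samples, so that nsEP replicate 3 lay lowest of all 9 arrays. Its log2 ratio after heat shock was -0.11 with a confidence interval of -0.65 to 0.44. MED17, on which the head is built, read 10.61, 11.18 and 11.06 in sham, 11.54, 11.78 and 10.89 in nsEP and 10.38, 10.60 and 10.51 in heat shock samples. The heat shock values of MED17 lay just below those of sham, with a log2 ratio of -0.46 (adjusted p 0.305).

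No kinase module transcript passed the test against sham at its brightest probe set. CDK8 read 10.69, 10.86 and 10.61 in sham, 10.73, 10.52 and 10.28 in nsEP and 10.62, 10.48 and 10.61 in heat shock samples. CDK19 read 9.67, 10.06 and 9.92 in sham, 9.65, 10.22 and 9.85 in nsEP and 9.44, 9.87 and 9.73 in heat shock samples. Groups overlapped in both kinases, and the confidence interval after heat shock was -0.48 to 0.19 for CDK8 and -0.62 to 0.21 for CDK19. A further, dimmer probe set of CDK19 passed as higher after heat shock (log2 ratio 1.64, adjusted p 0.00108), so that the CDK19 transcript was not read alike by its probe sets. CCNC, the cyclin that both kinases need, read 12.99, 13.04 and 13.29 in sham, 13.08, 12.79 and 12.82 in nsEP and 13.31, 13.29 and 13.27 in heat shock samples. Its log2 ratio was -0.21 after nsEP (adjusted p 0.852) and 0.18 after heat shock (adjusted p 0.555).

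MED12 activates the kinase and MED13 ties the module to the rest of Mediator. MED12 read 10.27, 9.66 and 9.48 in sham, 9.32, 9.59 and 10.15 in nsEP and 10.07, 10.60 and 10.23 in heat shock samples, and overlapped between groups. Its probe set is of a type that shares probes with other transcripts, so that the signal may not be from MED12 alone. MED13 read 11.96, 11.80 and 12.09 in sham, 11.66, 12.06 and 12.10 in nsEP and 11.64, 11.70 and 11.40 in heat shock samples. Its heat shock arrays lay below those of sham, with a log2 ratio of -0.37 (confidence interval -0.72 to -0.02, adjusted p 0.247). The paralogs MED12L and MED13L had log2 ratios after heat shock of -0.09 and -0.01.

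The balance within each paralog pair was taken as a log2 ratio inside each array, which a shift of a whole array leaves as it is. Sham samples had 0.84 ± 0.17 for CDK8 over CDK19, nsEP samples 0.61 ± 0.42 and heat shock samples 0.89 ± 0.28 (SD, n = 3 each). MED12 over MED12L was 2.24 ± 0.35, 1.52 ± 0.90 and 2.82 ± 0.80 in the same order, and MED13 over MED13L was 1.23 ± 0.15, 1.05 ± 0.35 and 0.87 ± 0.07. Only the last pair had arrays that did not overlap between sham and heat shock, a difference of -0.36 with a two-sided exact permutation p of 0.1, the smallest that 3 against 3 arrays allow, and 0.6 after adjustment over the 6 comparisons made. The other 5 comparisons had exact permutation p from 0.3 to 0.8. These differences depended on the probe set. With the mean of all probe sets the heat shock difference of MED13 over MED13L was -0.026, that of CDK8 over CDK19 went from 0.06 to -0.70 and that of MED12 over MED12L from 0.58 to -0.055.

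After nsEP exposure 0 of 31 Mediator genes passed the test, and 0 did at an unadjusted p under 0.05. Of all genes 0.0607% passed in either direction (12 genes), and 5.4% had an unadjusted p under 0.05. The smallest adjusted p of a member was 0.742, for MED17. Log2 ratios ran from -0.38 for MED18 to 0.77 for the dim MED24, with a median of 0.03 over the members and -0.02 over all genes. The brighter probe set listed with MED24 and a microRNA gene, not counted among the members, went the other way. It read -0.47 after nsEP (confidence interval -0.86 to -0.08, limma unadjusted p 0.021, adjusted p 0.609), with its nsEP arrays below those of sham. For the 30 members at or above the median signal the confidence interval was on median 0.42 wide to each side, and all their intervals lay between -0.96 and 1.31. MED4, which fell most after heat shock, had -0.10 (confidence interval -0.57 to 0.37), and MED11 had 0.04 (-0.42 to 0.50).

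Arrays of nsEP and sham did not overlap for MED31, which was higher (log2 ratio 0.36, adjusted p 0.749), and for MED18 and MED23, which were lower. That is 1 member of 31 against 4.56% of all genes for higher values, and 6.45% of members against 5.41% of all genes for lower ones. The count that passed was also 0 without nsEP replicate 3, the array that stood apart, and the median over the members was then 0.01.

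**Figure D3:**
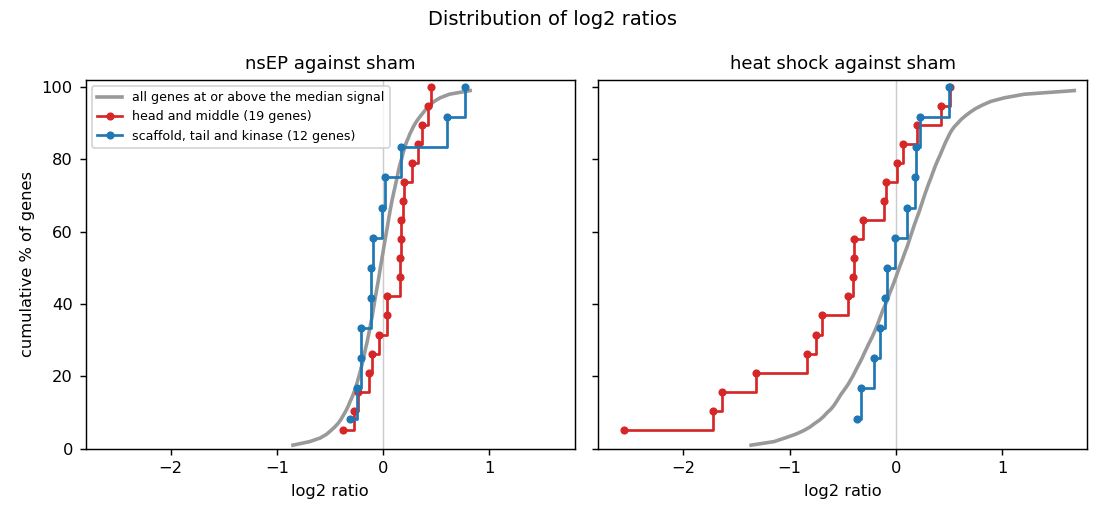
Cumulative percentage of genes by log2 ratio against sham, for nsEP on the left and heat shock on the right. Red steps are the 19 head and middle genes, blue steps the 12 genes of scaffold, tail and kinase module, and the grey line all genes at or above the median signal. After heat shock the red steps lie left of the grey line, reaching down to -2.56 for MED4, and after nsEP both sets lie nearer to it.

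Set directly against heat shock, nsEP exposed cells had 7 Mediator genes that passed as higher and 0 as lower (3.83% and 2.16% of all genes, and 6.1% of the brighter genes for higher). This comparison shares the heat shock arrays, as the one above shares the sham arrays, so the 3 comparisons are not independent. The 5 genes that heat shock lowered were among them, with log2 ratios of 2.45 for MED4, 1.76 for MED11, 1.74 for MED7, 1.26 for MED18 and 1.20 for MED31. The other 2 were MED17 (0.91, SE 0.22, adjusted p 0.0351) and MED9 (0.93, SE 0.25, adjusted p 0.0497). The nsEP arrays of MED17 at 10.89 to 11.78 lay above the heat shock arrays at 10.38 to 10.60. With each array left out in turn the 5 passed every time, whereas MED17 passed only without nsEP replicate 3 and MED9 only without nsEP replicate 1. Without nsEP replicate 3, MED27 passed as lower in nsEP samples. By module the 7 were 3 of 10 head genes, 4 of 9 middle genes and 0 of the 12 others. Arrays did not overlap for 11 members that were higher in nsEP samples (10.7% of all genes and 15.9% of the brighter genes). They did not overlap for 1 that was lower, CCNC (14.4% and 14.5%).

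Most members were read by several probe sets, which can target different transcript ends. Of the 60 further probe sets of the 31 genes, 45 lay at or above the median signal, and 28 of these had the sign of the brightest one after heat shock and 24 after nsEP. After heat shock 5 of the 60 passed as lower and 1 as higher, where 2.36% and 1.81% of all probe sets did. The second probe set of MED4 fell too, with a log2 ratio of -2.03 (SE 0.20, adjusted p 0.000133), and so did that of MED7, with -1.07 (SE 0.24, adjusted p 0.0262). That of MED18 gave -0.89 (adjusted p 0.128), and MED11 had 1 probe set only. MED31 was not read alike, since its second probe set, at 0.71 after heat shock, had an adjusted p of 0.0644. For nsEP against heat shock the mean gave -0.040 for MED17 and -0.0091 for MED31, opposite to their brightest probe sets.

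**Figure D4:**
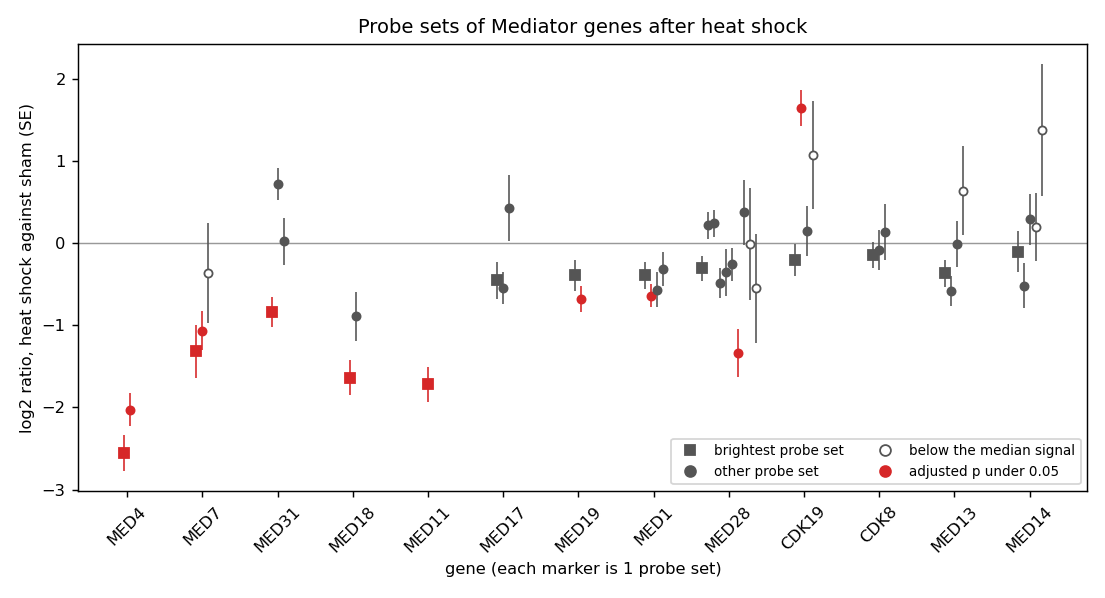
Log2 ratio of heat shock against sham for each probe set of 13 Mediator genes, with standard errors. Squares are the brightest probe sets, circles the others, open circles those below the median signal, and red marks an adjusted p under 0.05. Both bright probe sets of MED4 and of MED7 passed as lower, whereas MED31 and CDK19 had probe sets on opposite sides of 0.

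Partners of Mediator in transcription were followed as lists, to be read against the 5.71% of all genes that passed in either direction after heat shock. Of the 12 subunits of RNA polymerase II, 1 passed after heat shock, POLR2D, which binds the polymerase in a detachable pair with POLR2G (log2 ratio -0.60, SE 0.15, adjusted p 0.0362), and the list median was 0.19. Of 21 measured genes of promoter-proximal pausing and its release, 1 passed, HEXIM1, an inhibitor of the P-TEFb kinase, with 10.86, 10.94 and 10.85 in sham and 12.02, 12.45 and 12.09 in heat shock samples (log2 ratio 1.31, SE 0.15, adjusted p 0.000432). The median of that list was -0.25, where that of the 31 Mediator genes was -0.15. Of 10 genes of cohesin and its loader, which hold enhancers and promoters together with Mediator, NIPBL passed with -0.63 (SE 0.16, adjusted p 0.0433), and the list median was -0.21. None of the 3 lists had a gene that passed after nsEP against sham. Against heat shock, nsEP samples were higher in POLR2D (0.66), NIPBL (0.90) and PDS5B (0.78). In the pausing list 3 genes were higher and 2 lower, with the largest log2 ratios in HEXIM1 (-1.39), LARP7 (0.84) and the P-TEFb cyclin CCNT1 (0.77). In that comparison 3.83% of all genes passed as higher and 2.16% as lower, and 6.1% and 2.76% of the brighter genes.

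Markers of cell identity were read beside these falls. Of 14 measured T lymphocyte markers, 3 were lower after heat shock, CD2 (-1.79), CD28 (-1.01) and TRAT1 (-2.16), where 3.99% of all genes and 6.4% of the brighter genes were lower, and 0 passed after nsEP. The summed signal of the 14 was 83189 to 88885 units in sham and 76483 to 100452 in heat shock samples. Of 6 B cell markers 0 passed, and of 7 myeloid markers 1 did after heat shock, CD14, from a mean log2 signal of 2.29 to 7.07. The summed myeloid signal was 388 to 491 units in sham and 601 to 779 in heat shock samples. The 3' over 5' log2 ratio of GAPDH lay between -0.05 and 0.26 in sham and between -0.06 and -0.01 in heat shock samples, and that of ACTB between 0.52 and 1.26 and between 0.62 and 0.79. The part of these in the Mediator values was not tested.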

How the data were processed

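Total RNA of 9 Jurkat samples was hybridised to Affymetrix U133 Plus 2.0 arrays. The authors deposited log2 values of MAS5 signals, which MAS5 scales to a common trimmed mean per array (499.9 on average here). Detection calls were not used here. Precision is limited by the number of arrays. Of 54675 probe sets 62 controls were set aside. Gene names came from the probe table of the platform. For the partner and marker lists they were updated by gene identifier, whereas members and all-gene counts used the platform's own symbols. A probe set with several symbols named none.

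All arrays entered 1 fit in limma 3.58.1 (R 4.3.3) with 1 mean per group and a variance trend. It replaced the study's Student's t-test, which was run as an alternative beside other scalings, 32 signal units added, filters, array weights, a replicate block and each array left out. The fit was tested on simulated data. Paralog ratios were compared by exact permutation. Figures were drawn with matplotlib 3.10.9 in Python 3.11.15. Promoters came from RefSeq (GRCh38.p14), where 24 of 31 genes matched.

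Every array value is given for members that passed in any comparison and for CDK8, CDK19, CCNC, MED12, MED13, MED14, MED1, MED4, MED15, MED17 and MED23. From each partner or marker list up to 3 genes that passed, by size of log2 ratio, are named per comparison. Members, lists and modules were chosen with earlier results of these data known.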

Additional observations from a re-analysis of the deposited data

Results flagged for a closer look

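Probe sets outside the comparisons, because a brighter probe set stood for their gene, gave signals that differed between heat shock and sham samples. A further probe set of CDK19 rose by a log2 ratio of 1.64 (SE 0.22, limma adjusted p 0.00108) whereas the brightest probe set of CDK19 gave -0.21. Further probe sets of 5 genes fell: MED4 with -2.03, MED7 with -1.07, MED28 with -1.34 (adjusted p 0.0225), MED19 with -0.68 (adjusted p 0.0335) and MED1 with -0.64 (adjusted p 0.0226). The brightest probe sets of the last 3 gave -0.31, -0.39 and -0.39 and did not pass. A probe set that the platform lists with both MED24 and a microRNA gene, and that was therefore assigned to neither, fell by 0.81 on the log2 scale (adjusted p 0.0240).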

How the results depend on the processing

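For nsEP against sham the number of Mediator genes that passed was 0 under each of the alternatives run. For heat shock against sham (5 as reported) it was 10 with centred arrays, 10 with spike-in scaling, 3 without the variance trend, 0 by the methods' t-test after Benjamini-Hochberg, 1 (MED4) by that test at the study's thresholds, and 3 to 5 with 1 array left out, with 3 each time sham replicate 1, sham replicate 3, heat shock replicate 2 or heat shock replicate 3 was absent. The probe sets that passed over the whole array numbered 2276 as reported, 4571 with centred arrays, 3762 with spike-in scaling and 837 without the variance trend. For nsEP against heat shock (7 as reported) it was 12 with centred arrays, 4 without the variance trend, 0 and 1 by those t-tests, and 5 to 7 with 1 array left out. MED4, MED11 and MED18 passed after heat shock in all but the t-test settings, and MED4 also at the study's thresholds. Replicate numbers did not pair the samples: deviations of same-numbered samples correlated between -0.07 and 0.05. With the replicate block the Mediator counts were 0, 5 and 6. With the mean of all probe sets of a gene, MED17 and MED31 turned to -0.040 and -0.0091 for nsEP against heat shock. Under that setting the paralog differences moved to -0.70 (CDK8 over CDK19, heat shock), -0.055 (MED12 over MED12L, heat shock), 0.46 and -0.026 (MED13 over MED13L, nsEP and heat shock). The causes were not tested.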
